A study of Mus musculus with 12 samples.

Results

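The genes described here are 32 genes of cholesterol metabolism, taken by symbol from a given list, out of 46983 genes listed in each count file. They comprise 18 enzymes of cholesterol synthesis, 4 genes that control the transcription factor SREBP2, 1 gene of lipoprotein uptake, 3 of sterol transport inside the cell, 2 of storage as esters and 4 efflux pumps. RNA from primary mouse hepatocytes was sequenced in 12 libraries that fall into 4 groups of 3. AEG-1-WT (wild-type) and AEG-1-L24K/L25H (knock-in) hepatocytes were either untreated or given CP775146, a PPARα agonist, at 2.5 µM for 24 h. The knock-in carries the L24K/L25H change in AEG-1 (gene Mtdh), a protein whose LXXLL motif is known to bind the nuclear receptor RXR. Both genotypes were littermates on a C57BL/6/J background from heterozygous parents, the knock-in was made with CRISPR/Cas9, and the mice ate regular chow. The allele is carried by the whole mouse and is not limited to hepatocytes. The labels name no vehicle for the untreated cells and leave unsaid whether replicates are separate mice, separate cultures or neither, so the p-values measure the spread between these libraries, which may be technical.

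Each library held 26956032 to 34885451 counts assigned to genes, and levels are given as CPM (counts scaled to a common library size, with TMM factors), in the order of replicates 1, 2 and 3. Changes are log2 fold changes ± SE from edgeR's quasi-likelihood test over 15664 genes, and a gene is called where the Benjamini-Hochberg adjusted p is below 0.05. The SE of a change is its absolute value divided by the square root of that test's F statistic, and is unreliable for changes near 0. In all, 31 members were tested. Abcg1 did not pass the filter on low counts, with 3 to 11 counts per library. Soat1 passed it but had 3 to 15 counts per library, close to the 0.086 to 0.111 CPM that 3 counts represent. Where groups are said not to overlap, the same held for 49.0% of all genes with CP775146 in the wild type, 51.9% in the knock-in, 47.4% between untreated and 51.2% between treated genotypes, in either direction.

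Cholesterol is built in the endoplasmic reticulum and cytosol from acetyl-CoA through mevalonate, farnesyl diphosphate, squalene and lanosterol. When the membrane is poor in sterol, SCAP carries SREBP2 to the Golgi, where it is cut and released to switch on the genes of synthesis and uptake, while INSIG1 and INSIG2 hold the SCAP-SREBP2 complex back when sterol is plentiful. When sterol accumulates, oxysterols activate LXR, which pairs with RXR and switches on the pumps ABCA1, ABCG1, ABCG5 and ABCG8 and the ubiquitin ligase MYLIP (IDOL). In hepatocytes ABCA1 loads cholesterol onto apolipoprotein A-I to form HDL, and the ABCG5-ABCG8 pair secretes sterol into bile. PPARα also works as a partner of RXR.

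Promoter sequences from RefSeq (GRCm38.p6) are shown because the synthesis genes moved together while the efflux genes did not. The 250 bases before the start were searched on both strands, and 25 of the 32 members had an entry. Fdps, Fdft1, Sqle, Stard4, Npc1, Soat2 and Abcg1 had none. The sterol regulatory element spelled TCACNCCAC was found in 1 of 25 members, Hmgcs1, and in 1.22% of 27025 genes (1.05% of 32851 promoters). No other spelling of this element was searched, so members that hold another form were missed. The NF-Y box CCAAT was found in 21 of 25 members and in 37.5% of 27025 genes, and the Sp1 box GGGCGG in 21 of 25 members and in 35.4% of genes. At least 3 CCAAT boxes were held by 6 members before 1 start, namely Hmgcs1, Hsd17b7, Msmo1, Insig2, Mvk and Mylip. None of the 85 matches in members overlapped a match of another motif. The windows of 4 of them, each called higher with CP775146 in both genotypes, follow. The sterol regulatory element and the CCAAT boxes of either strand (CCAAT or ATTGG) are in capitals. Mvk and Mylip are not shown. With CP775146 Mvk changed by 0.15 in the wild type and -0.03 in the knock-in, and Mylip by -0.2 and -0.13. Only the wild-type change of Mvk was called. The share of all promoters with at least 3 boxes was not computed.
Hmgcs1, chr13:119690106-119690321, plus strand: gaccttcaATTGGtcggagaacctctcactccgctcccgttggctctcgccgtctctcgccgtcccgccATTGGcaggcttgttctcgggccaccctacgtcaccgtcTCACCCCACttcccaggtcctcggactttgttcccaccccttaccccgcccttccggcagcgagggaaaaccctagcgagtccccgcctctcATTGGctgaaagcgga
Hsd17b7, chr1:169969206-169969380, minus strand: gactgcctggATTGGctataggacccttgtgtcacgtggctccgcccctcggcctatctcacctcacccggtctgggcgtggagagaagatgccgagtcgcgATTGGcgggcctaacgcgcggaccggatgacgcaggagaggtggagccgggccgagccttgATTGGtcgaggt
Msmo1, chr8:64733623-64733748, minus strand: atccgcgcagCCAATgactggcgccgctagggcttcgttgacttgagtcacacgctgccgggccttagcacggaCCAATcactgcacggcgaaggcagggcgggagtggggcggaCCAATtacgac
Insig2, chr1:121332609-121332729, minus strand: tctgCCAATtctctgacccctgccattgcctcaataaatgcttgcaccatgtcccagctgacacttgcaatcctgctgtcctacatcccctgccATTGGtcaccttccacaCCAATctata
The Hmgcs1 window holds 3 CCAAT boxes around its sterol regulatory element. The Insig2 window lies before 1 of its annotated starts. In the exon coordinates of the count files (mm10) Msmo1 runs to 64733792, so its window lies within that gene model. Hsd17b7 runs to 169969241 there, so its window partly overlaps its gene model. The efflux genes are shown for contrast.
Abca1, chr4:53159915-53159995, minus strand: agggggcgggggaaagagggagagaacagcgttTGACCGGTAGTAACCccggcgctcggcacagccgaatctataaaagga
Abcg8, chr17:84683001-84683120, plus strand: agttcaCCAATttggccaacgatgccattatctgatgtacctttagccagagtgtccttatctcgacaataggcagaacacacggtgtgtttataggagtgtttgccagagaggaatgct
The capitals in Abca1 mark the letters that match a degenerate DR4, the arrangement of half-sites that LXR with RXR binds. The strict spelling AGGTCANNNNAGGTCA was in no member and in 0.0152% of promoters, so the spelling was loosened after that search. The degenerate form was then found in 1 of 25 members and in 0.607% of genes (0.524% of promoters). The PPAR spelling AGGTCANAGGTCA was in no member and in 0.0335% of promoters, and its degenerate form was in no member and in 0.846%. The Abcg8 window runs up to the RefSeq start of Abcg8 on the plus strand, but in the exon coordinates of the count files (mm10) Abcg8 runs from 84676302 to 84700333, so the window lies within that gene model. Abcg5 lies on the minus strand from 84658234 to 84683011, and the 2 gene models overlap. A match is a description of letters and no evidence of binding.

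CP775146 raised the synthesis enzymes in wild-type hepatocytes. Of the 31 members tested, 20 were called higher and 6 lower, beside 22.7% of all genes called higher and 22.3% lower. Of the 18 synthesis enzymes, 16 were called higher, 1 lower (Ebp) and 1 not (Tm7sf2), with a median log2 change of 0.58 beside -0.005 over all genes tested. In the knock-in 19 members were called higher and 4 lower, beside 18.1% of all genes called higher and 19.1% lower, and 15 of the 18 enzymes were called higher with a median of 0.34 beside -0.01. The SREBP2 gene itself did not pass the test in either genotype, while the SREBP2 brakes Insig1 and Insig2 rose. Among the pumps Abca1 rose and Abcg5 and Abcg8 fell, so the LXR-controlled pumps had no common direction. Scaling by total counts moves the median of all genes by -0.104 in the wild type and -0.074 in the knock-in. With it 14 enzymes were called higher in the wild type, beside 2358 of all 15664 genes. In the knock-in 12 enzymes were called higher, beside 2066 of all genes. The calls lost were those of Mvk and Sc5d in the wild type and of Idi1, Sqle and Sc5d in the knock-in, and Srebf2 was called lower in the wild type (-0.11, adjusted p = 0.039). Of 8 hepatocyte markers 3 were called higher and 4 lower with CP775146 in the wild type and 1 and 5 in the knock-in, with Tat at -2.50 and -2.22 and Cps1 at -1.86 and -1.24, and their part in the changes of the members was not tested.

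The first 7 enzymes lead from acetyl-CoA to farnesyl diphosphate, and all 7 rose in wild-type cells. Hmgcs1, which encodes the cytosolic HMG-CoA synthase, stood at 378, 357 and 395 CPM in untreated and 709.6, 762 and 729 CPM in treated wild-type libraries. Those groups did not overlap, and the change was 0.96 ± 0.04 (edgeR adjusted p = 3.35e-18). In the knock-in the libraries held 494, 505 and 502 CPM untreated and 881, 845 and 916 CPM treated, a change of 0.82 ± 0.04. Hmgcs1 also had the highest level per kilobase of exon among the members, at 116 CPM per kb in untreated wild-type cells, followed by Insig2 at 108, Cyp51 at 64.5 and Sc5d at 63.3.

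Mvd, the mevalonate diphosphate decarboxylase, had 19.3, 18.7 and 20.8 CPM untreated and 37, 39.9 and 40.2 CPM treated in wild-type libraries. Knock-in libraries had 23, 22 and 21.9 CPM untreated and 38.3, 34.9 and 40.2 CPM treated. The treated libraries were above all untreated libraries in each genotype, with changes of 0.99 ± 0.06 in the wild type and 0.76 ± 0.06 in the knock-in. Pmvk, the phosphomevalonate kinase that acts just before it, went from 26, 25.2 and 29.4 to 44.5, 42.5 and 44 CPM in the wild type, a change of 0.70 ± 0.05. In the knock-in Pmvk went from 28.5, 29.5 and 28.6 to 44.5, 43.2 and 45.5 CPM, a change of 0.62 ± 0.05. The treated levels of Pmvk overlapped between the genotypes.

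Acat2, the cytosolic acetoacetyl-CoA thiolase at the entry of the pathway, had 37.5, 37.2 and 35.7 CPM untreated and 53.4, 55.4 and 57.1 CPM treated in the wild type (0.59 ± 0.05). The knock-in had 44.1, 41.8 and 41.3 CPM untreated and 58.7, 58.8 and 56.9 CPM treated (0.45 ± 0.04). Acat2 has a close neighbouring copy, Acat3, and reads that match both may not have been counted. Fdps, the farnesyl diphosphate synthase, went from 18.8, 18.1 and 17.4 to 29.9, 35.8 and 28.6 CPM in the wild type (0.80 ± 0.07) and from 17, 17 and 16.3 to 24.4, 24 and 24.9 CPM in the knock-in (0.54 ± 0.07). Of its exon bases 26.7% are shared with the annotated gene Gm43738, so its counts are less certain. Wild-type treated replicate 2 held the highest Fdps value.

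Idi1, the isopentenyl diphosphate isomerase, was the sparsest enzyme, with 5.42, 3.91 and 6.52 CPM untreated and 6.77, 9.33 and 8.89 CPM treated in the wild type (0.65 ± 0.14, adjusted p = 0.000555). Its knock-in values were 6.94, 6.57 and 6.65 CPM untreated and 9.08, 8.1 and 8.84 CPM treated (0.37 ± 0.13, adjusted p = 0.0252). That knock-in call was lost without any 1 of untreated replicates 1, 2 and 3 and treated replicates 1 and 3, with adjusted p between 0.0519 and 0.0885, and with total-count scaling (0.30, adjusted p = 0.0572). Mvk, the mevalonate kinase, changed least of the 7. Its change was 0.15 ± 0.06 in the wild type (adjusted p = 0.0284) and -0.03 ± 0.05 in the knock-in (adjusted p = 0.741). The wild-type call was lost without any 1 of untreated replicates 1 and 3 and treated replicates 1 and 3 (adjusted p 0.0701 to 0.167), in DESeq2 (adjusted p = 0.0705), with only the compared groups (adjusted p = 0.0625) and with total-count scaling (0.05, adjusted p = 0.477). In the fit of the knock-in 6 of the 7 early enzymes were called higher and none lower.

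The 3 squalene enzymes, which make squalene, oxidise it and close it to lanosterol, were called higher with CP775146 in both genotypes. Lss, the lanosterol synthase, had 107, 111 and 103 CPM untreated and 188, 192 and 188 CPM treated in the wild type. In the knock-in Lss had 92.1, 93.8 and 91.1 CPM untreated and 145, 142 and 142 CPM treated. The changes were 0.83 ± 0.04 and 0.63 ± 0.04, and the 4 groups did not overlap at all. Sqle, the squalene epoxidase and a rate-limiting step, changed less than Lss in both genotypes, by 0.28 ± 0.04 and 0.11 ± 0.04. Its libraries held 309.8, 313 and 311 CPM in untreated and 367, 387 and 382 CPM in treated wild-type cells. In the knock-in they held 267, 265 and 257 CPM untreated and 281, 284 and 288 CPM treated, so that each treated knock-in library stayed below each untreated wild-type library. The knock-in call of Sqle was lost without untreated replicate 3 (adjusted p = 0.0699) or treated replicate 3 (adjusted p = 0.0649), and with total-count scaling (0.05, adjusted p = 0.276). Fdft1, the squalene synthase, rose by 0.28 and 0.26, and 26.8% of its exon bases are shared with Ctsb.

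From lanosterol on, 6 of 8 enzymes rose and Ebp fell in each genotype. Hsd17b7, which reduces the sterol ketone during removal of the methyl groups, had the largest rise of all 31 members tested in both genotypes. It went from 95.4, 96.3 and 95 to 212, 224 and 213 CPM in the wild type, a change of 1.18 ± 0.04 (adjusted p = 5.38e-21). Knock-in libraries went from 112, 113 and 119.6 to 219, 212 and 219.5 CPM, a change of 0.91 ± 0.04 (adjusted p = 2.47e-18). The treated levels of the 2 genotypes overlapped, while the untreated levels did not.

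Msmo1, the methylsterol monooxygenase, had 188, 179.5 and 191 CPM untreated and 271, 291 and 285 CPM treated in the wild type (0.60 ± 0.04). The knock-in values were 202, 208 and 204 CPM untreated and 246, 244 and 261 CPM treated (0.29 ± 0.04). Untreated knock-in libraries were thus above the wild type and treated ones below it. Nsdhl, the dehydrogenase that works with Msmo1, went from 108, 109 and 105 to 159, 157 and 156 CPM in the wild type (0.55 ± 0.04) and from 124, 126 and 114 to 150.2, 147 and 153 CPM in the knock-in (0.31 ± 0.04). Dhcr7, which performs the last reduction to cholesterol, went from 75.9, 83.5 and 78.3 to 121, 116 and 116 CPM in the wild type (0.57 ± 0.04). In the knock-in Dhcr7 went from 73.3, 71 and 74.1 to 98.3, 96.1 and 102 CPM (0.44 ± 0.04), and its treated libraries stayed below those of the treated wild type. Cyp51, the lanosterol demethylase, rose by 0.47 in the wild type and 0.25 in the knock-in, and Sc5d, the sterol desaturase, by 0.16 and 0.15. With total-count scaling neither Sc5d change was called (0.06, adjusted p = 0.183, and 0.09, adjusted p = 0.0564). Tm7sf2, a sterol reductase with 15.3% of its exon bases shared with Vps51, was not called, at 0.09 ± 0.05 and 0.04 ± 0.05, and without wild-type treated replicate 2 its wild-type change was called at 0.14 (adjusted p = 0.0127). Ebp, the sterol isomerase, was the exception in direction, at -0.19 ± 0.05 in the wild type and -0.14 ± 0.04 in the knock-in. Its knock-in call was lost without untreated replicate 2 or treated replicate 1 or 2 (adjusted p 0.0519 to 0.0578).

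**Figure D1:**
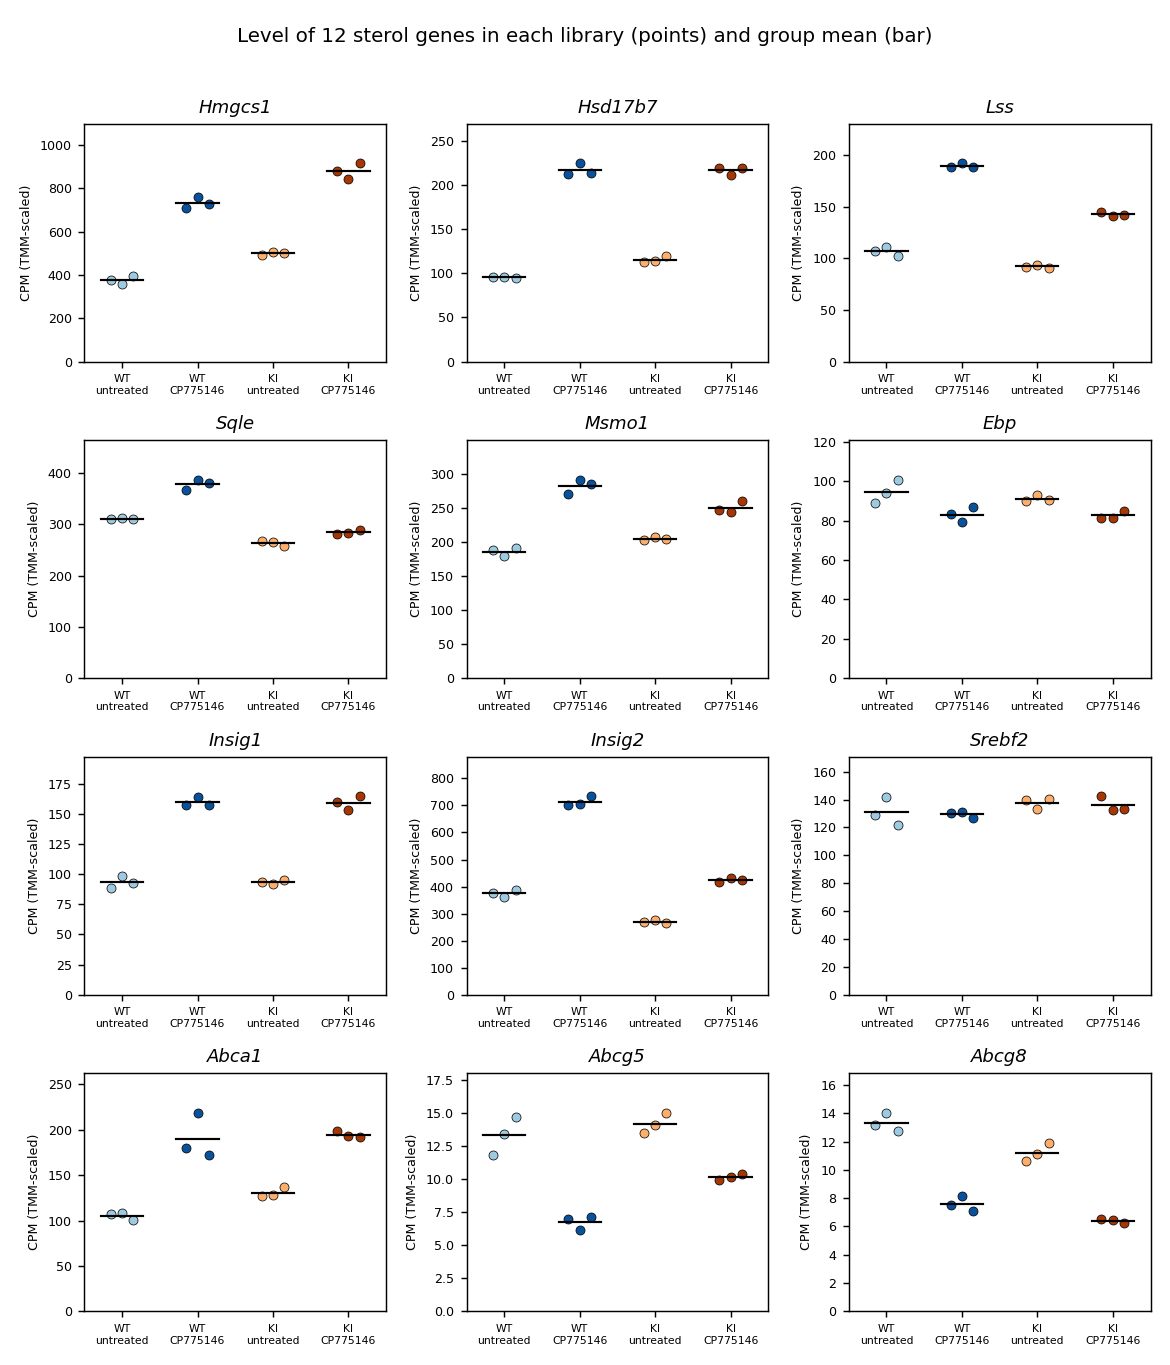
Level of 12 of the genes in each library (CPM after TMM scaling, linear axes from 0), with the 4 groups along the horizontal axis, 1 point per library and a bar at the group mean. Hmgcs1, Hsd17b7, Lss, Msmo1, Insig1, Insig2 and Abca1 stand higher in the treated groups of both genotypes, Abcg5 and Abcg8 stand lower, and Srebf2 lies between 122 and 142 CPM in all 12 libraries.

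**Figure D2:**
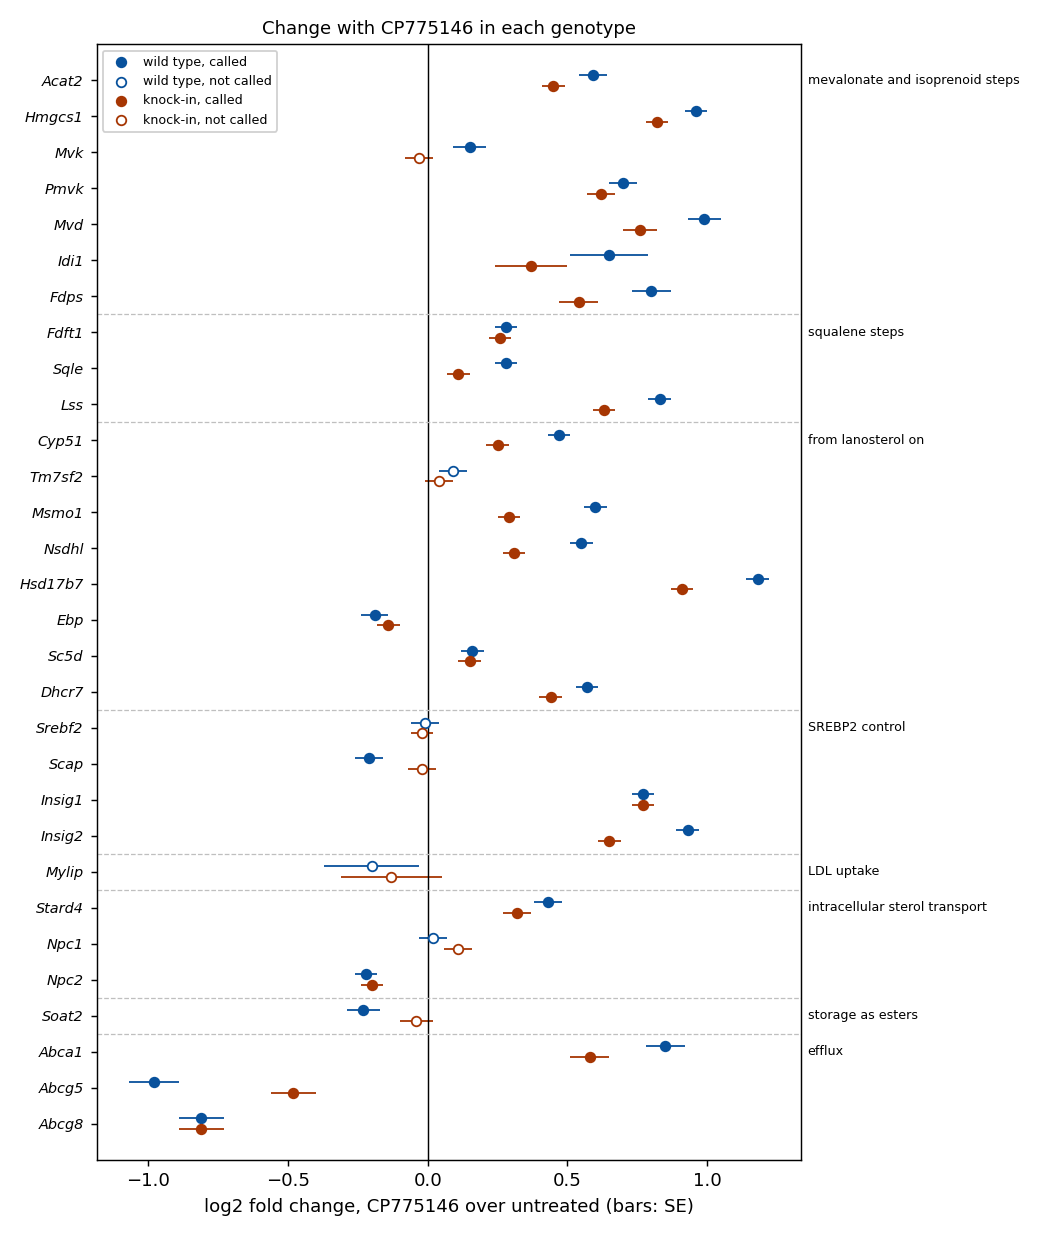
Log2 fold change of CP775146 over untreated for 30 of the 31 tested members (horizontal axis, bars are SE), blue for the wild type and red for the knock-in, filled where called and open where not, ordered by role. Soat1 is left out for its low counts. The synthesis enzymes lie mostly to the right of 0 and the red points mostly left of the blue ones, while Abcg5 and Abcg8 lie at -0.98 to -0.48.

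Among the SREBP2 regulators, the gene for the factor and the genes for its brakes differed. Srebf2, which encodes SREBP2, had 129, 142 and 122 CPM untreated and 130.5, 131 and 127 CPM treated in the wild type. In the knock-in it had 139, 133 and 140.4 CPM untreated and 142, 132 and 134 CPM treated. The changes were -0.01 ± 0.05 (adjusted p = 0.829) and -0.02 ± 0.04 (adjusted p = 0.803), with overlapping libraries in both comparisons. mRNA of Srebf2 does not measure how much of the protein is cut. Scap, its escort, had 74.4, 82.2 and 76.4 CPM untreated and 70.1, 65.4 and 66.2 CPM treated in the wild type, a change of -0.21 ± 0.05. In the knock-in Scap had 64.7, 65.9 and 71.8 and 70.5, 66 and 63.8 CPM, which overlapped (-0.02 ± 0.05, adjusted p = 0.835), and 13.2% of its exon bases are shared with another annotated gene.

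Insig1, itself a known target of SREBP2, had 88.8, 98.2 and 93.1 CPM untreated and 158, 164 and 157 CPM treated in the wild type. Knock-in cells had 93.4, 91.5 and 94.8 CPM untreated and 160.2, 154 and 164 CPM treated. The rise was 0.77 ± 0.04 in the wild type and 0.77 ± 0.04 in the knock-in, with overlapping levels between the genotypes in each state. Insig2, the other brake, had 377, 361 and 387 CPM untreated and 702, 706 and 733 CPM treated in the wild type (0.93 ± 0.04). Its knock-in libraries held 270.3, 275 and 265 CPM untreated and 417, 433 and 425 CPM treated (0.65 ± 0.04). No library of the knock-in reached the wild-type libraries in the same state. The CPM ratio of Insig1 to Insig2 in single libraries was accordingly 0.24, 0.27 and 0.24 in untreated wild-type cells and 0.35, 0.33 and 0.36 in untreated knock-in cells. With CP775146 it was 0.22, 0.23 and 0.21 in the wild type and 0.38, 0.35 and 0.39 in the knock-in. The ratio does not depend on scaling, it was chosen after the values were seen, and 3 libraries against 3 cannot give an exact two-sided permutation p below 0.1.

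Of the 6 genes of uptake, transport and storage, 1 rose and 2 fell with CP775146 in the wild type, beside 22.7% of all genes higher and 22.3% lower, and 1 rose and 1 fell in the knock-in, beside 18.1% and 19.1%. These counts are close to those shares. Mylip, the ubiquitin ligase that marks lipoprotein receptors for breakdown, was low, with 38 to 62 counts per library. It had 2.12, 2.33 and 2.01 CPM untreated and 1.81, 1.91 and 1.9 CPM treated in the wild type, and 1.48, 1.62 and 1.14 and 1.21, 1.26 and 1.38 CPM in the knock-in. Neither change with CP775146 passed the test (-0.20 ± 0.17, adjusted p = 0.347, and -0.13 ± 0.18, adjusted p = 0.616). Stard4, which carries sterol through the cytosol, rose in both genotypes. It went from 66.2, 62.9 and 63.7 to 81.6, 93.9 and 83.5 CPM in the wild type (0.43 ± 0.05) and from 70.7, 72.7 and 73.8 to 89, 89.8 and 91.5 CPM in the knock-in (0.32 ± 0.05).

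Npc1 and Npc2 pass cholesterol out of the lysosome. Npc1 had 115, 111 and 106 CPM untreated and 121, 111 and 105 CPM treated in the wild type, and 101, 99.7 and 107 and 116, 109 and 106 CPM in the knock-in. Treated and untreated libraries overlapped and neither change passed the test (0.02 ± 0.05, adjusted p = 0.816, and 0.11 ± 0.05, adjusted p = 0.0829). The knock-in change was called without treated wild-type replicate 1 or 3, at 0.11 (adjusted p = 0.0415 and 0.0453), and also with only the compared groups (adjusted p = 0.00682) and in limma (adjusted p = 0.0322). Npc2 fell, from 173, 174 and 174 to 154, 139.7 and 154 CPM in the wild type (-0.22 ± 0.04) and from 147, 152 and 142 to 129, 126 and 129 CPM in the knock-in (-0.20 ± 0.04). Of the enzymes that store cholesterol as esters, Soat2, the hepatocyte form, had 32.3, 36.4 and 34.1 CPM untreated and 31.1, 26.6 and 30 CPM treated in the wild type (-0.23 ± 0.06, adjusted p = 0.00246). In the knock-in Soat2 had 30.7, 32.5 and 30.5 and 32.2, 30 and 29.2 CPM, which overlapped (-0.04 ± 0.06, adjusted p = 0.668). Soat1 lay between 0.112 and 0.526 CPM in the 12 libraries, too few counts to show a change of this size.

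The efflux genes went in opposite directions. Abca1 had 107, 108 and 101 CPM in untreated and 180.1, 218 and 172 CPM in treated wild-type libraries, and treated replicate 2 stood above the others. The knock-in libraries had 127, 128 and 136 CPM untreated and 198, 194 and 192 CPM treated. The rises were 0.85 ± 0.07 (adjusted p = 1.08e-07) and 0.58 ± 0.07 (adjusted p = 8.38e-06), with no overlap between treated and untreated libraries. Abcg5 had 11.8, 13.4 and 14.8 CPM in untreated and 6.96, 6.2 and 7.18 CPM in treated wild-type libraries, a fall of 49.3% (-0.98 ± 0.09, adjusted p = 1.62e-10). In the knock-in it had 13.5, 14.1 and 15 CPM untreated and 9.97, 10.2 and 10.4 CPM treated, a fall of 28.3% (-0.48 ± 0.08, adjusted p = 1.23e-05). Its partner Abcg8 had 13.2, 14 and 12.8 CPM untreated and 7.49, 8.17 and 7.07 CPM treated in the wild type (-0.81 ± 0.08). In the knock-in Abcg8 had 10.6, 11.2 and 11.9 CPM untreated and 6.51, 6.44 and 6.25 CPM treated (-0.81 ± 0.08), so that it fell by 43.0% in each genotype.

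Per kilobase of exon, Abca1 was the most abundant pump in untreated wild-type cells, at 10.2 CPM per kb, beside 4.92 for Abcg5 and 3.55 for Abcg8. Abcg1, the pump of macrophages, had 0.256, 0.113 and 0.322 CPM in untreated and 0.131, 0.102 and 0.186 CPM in treated wild-type libraries, which are 3 to 9 and 3 to 5 counts. Its knock-in libraries held 6 to 11 counts untreated and 6 to 8 treated, and no test was made. The CPM ratio of Abcg5 to Abcg8 was 0.9, 0.96 and 1.15 in untreated wild-type libraries and 0.93, 0.76 and 1.02 in treated ones. In the knock-in it was 1.27, 1.27 and 1.26 untreated and 1.53, 1.58 and 1.67 treated. All knock-in libraries were above all wild-type libraries, and within the knock-in all treated libraries were above the untreated ones. This ratio too was chosen after the values were seen, and of the exon bases of Abcg5 3.0% are shared with Abcg8, where reads that fall on both are not assigned to either.

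The contrast between synthesis and LXR-controlled efflux was therefore 1 of a common direction against a split one. The median change of the synthesis enzymes was 0.58 in the wild type and 0.34 in the knock-in, and that of the 3 tested pumps was -0.81 and -0.48. The pumps' median is that of a single gene in each case, with Abca1 on the other side of 0. Summed over the 18 synthesis enzymes, untreated wild-type libraries held 2048 to 2092 CPM and treated ones 3043 to 3150 CPM. The knock-in libraries held 2176 to 2215 CPM untreated and 2899 to 3060 CPM treated, so the groups of the same genotype did not overlap.

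**Figure D3:**
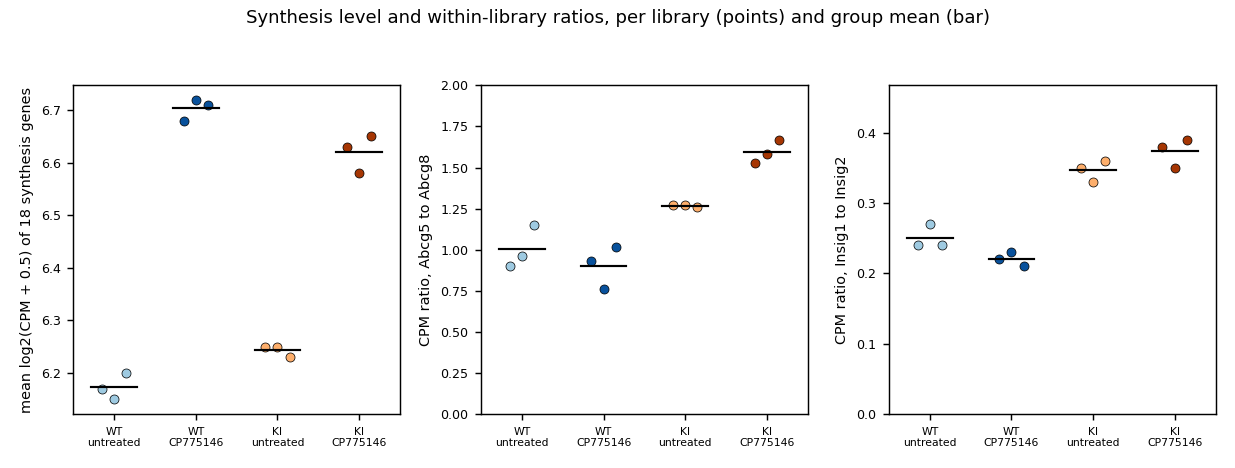
Values per library, with the 4 groups along each horizontal axis, 1 point per library and a bar at the group mean: left, the mean of log2(CPM + 0.5) over the 18 synthesis enzymes (axis not from 0); middle, the CPM ratio of Abcg5 to Abcg8; right, the CPM ratio of Insig1 to Insig2. The synthesis mean lies at 6.15 to 6.2 and 6.68 to 6.72 in untreated and treated wild-type libraries and at 6.23 to 6.25 and 6.58 to 6.65 in the knock-in, and both ratios are higher in every knock-in library than in every wild-type library.

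The treatment response of the synthesis enzymes was smaller in the knock-in where the difference was called. The test of the difference (the knock-in change minus the wild-type change) called 1 member higher and 7 lower, beside 2.78% of all genes higher and 4.33% lower. The 7 were Sqle, Lss, Cyp51, Msmo1, Nsdhl and Hsd17b7 among the enzymes, and Insig2. The largest difference among the called enzymes was that of Msmo1, at -0.31 ± 0.05 (adjusted p = 0.000327), followed by Hsd17b7 at -0.27 ± 0.05 (adjusted p = 0.00159). Nsdhl differed by -0.24 ± 0.06 (adjusted p = 0.00617) and Cyp51 by -0.22 ± 0.05 (adjusted p = 0.00657). These 4 enzymes all act on lanosterol or the sterols made from it. Lss differed by -0.20 ± 0.05 (adjusted p = 0.0165) and Sqle by -0.17 ± 0.05 (adjusted p = 0.0325). Of the 8 enzymes from lanosterol on 4 were called, of the 3 squalene enzymes 2, and of the 7 early enzymes none. The median differences of these sets were nonetheless alike, at -0.17, -0.17 and -0.18 in that order.

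All 18 enzymes taken, 17 differences were negative and 1, that of Ebp, was positive, with a median of -0.17, while 51.4% of the 15664 genes had a negative difference and their median was -0.006. The 7 early enzymes had differences of -0.28 to -0.08, of which 4 had an unadjusted p below 0.05. Hmgcs1 stood at -0.15 ± 0.06 (adjusted p = 0.126) and Mvd at -0.23 ± 0.08 (adjusted p = 0.104). Without wild-type untreated replicate 3 both were called, at -0.18 (adjusted p = 0.0354) and -0.27 (adjusted p = 0.0423). The Sqle call was lost without any 1 of 7 libraries, namely untreated knock-in replicates 1 and 2, treated knock-in replicates 1 and 2, wild-type untreated replicate 1 and wild-type treated replicates 2 and 3 (adjusted p 0.0594 to 0.0944), and with total-count scaling (-0.13, adjusted p = 0.0962). The Lss call was lost without untreated knock-in replicate 2 (adjusted p = 0.0504).

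Insig2 also had a smaller response in the knock-in, by -0.27 ± 0.05 (adjusted p = 0.000739). Insig1 had the same estimated rise in the 2 genotypes, 0.77 ± 0.04 in each (adjusted p of the difference = 0.999). The 1 member with a positive difference that was called was Abcg5, at 0.50 ± 0.12 (adjusted p = 0.00778), which is a smaller fall in the knock-in. Its partner Abcg8 changed by -0.81 ± 0.08 in each genotype, and its difference was not called. Abca1 stood at -0.28 ± 0.10 (adjusted p = 0.113). It was called in DESeq2 (-0.27, adjusted p = 0.0384), with no filter on low counts (-0.29, adjusted p = 8.87e-05) and without wild-type treated replicate 3 (-0.33, adjusted p = 0.0146). Scap stood at 0.19 ± 0.07 (adjusted p = 0.0993), and was called at 0.23 without untreated knock-in replicate 3 (adjusted p = 0.0498) at 0.24 without wild-type treated replicate 1 (adjusted p = 0.0379) and at 0.23 with total-count scaling (adjusted p = 0.044). Among the marker genes the difference was called for 5 of 8 of hepatocytes, from -0.33 for Trf to 0.62 for Cps1, and for Krt19, Krt7 and Sox9 of cholangiocytes, all lower, and their part in the differences of the members was not tested.

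Between the genotypes without treatment, the enzymes did not move as a group. Of the 31 members 9 were called higher and 8 lower in the knock-in, beside 18.4% of all genes higher and 18.6% lower. Scaled by total counts, the split was 15 higher and 5 lower, beside 5024 higher and 1722 lower of all 15664 genes. That scaling moves the median of all genes by 0.098 towards the knock-in. Early enzymes were higher, with Hmgcs1 at 0.41 ± 0.04 (adjusted p = 1.74e-09), Mvk at 0.21 ± 0.05, Acat2 at 0.20 ± 0.05 and Mvd at 0.18 ± 0.06. Of the 7 early enzymes 4 were called higher and none lower. Of the 3 squalene enzymes 2 were lower, with Sqle at -0.24 ± 0.04 and Lss at -0.21 ± 0.04, while Fdft1 did not pass the test (0.05 ± 0.04, adjusted p = 0.426). From lanosterol on Hsd17b7 (0.27 ± 0.04), Nsdhl (0.17 ± 0.04) and Msmo1 (0.14 ± 0.04) were higher and Dhcr7 (-0.12 ± 0.04) lower. With total-count scaling Fdft1 (0.15, adjusted p = 0.00636) and Cyp51 (0.15, adjusted p = 0.00116) were also called higher. The Mvd call was lost without knock-in replicate 1 or wild-type replicate 1 or 2 (adjusted p 0.0596 to 0.0879), and the Dhcr7 call without knock-in replicate 1 or 2 or wild-type replicate 2 (adjusted p 0.0647 to 0.195), with total-count scaling (-0.02) and with no filter on low counts (adjusted p = 0.0944). Idi1 stood at 0.34 ± 0.14 (adjusted p = 0.0605) and Pmvk at 0.10 ± 0.06, and without wild-type untreated replicate 3 both were called, at 0.52 (adjusted p = 0.00291) and 0.17 (adjusted p = 0.0159). Without wild-type untreated replicate 2 they fell to 0.17 (adjusted p = 0.311) and 0.06 (adjusted p = 0.453). Idi1 was also called without wild-type treated replicate 1 (0.34, adjusted p = 0.0287), with no filter on low counts (adjusted p = 0.00434), in limma (adjusted p = 0.028) and with total-count scaling (adjusted p = 0.013), the last also for Pmvk (adjusted p = 0.00413).

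Outside the synthesis list, Insig2 was lower in the untreated knock-in at -0.47 ± 0.04 (adjusted p = 1.04e-11), Npc2 at -0.24 ± 0.04 and Scap at -0.20 ± 0.05. Mylip was lower at -0.61 ± 0.17 (adjusted p = 0.00554), a call lost without knock-in replicate 3 (-0.47, adjusted p = 0.0554). Among the pumps Abca1 was higher at 0.31 ± 0.07 (adjusted p = 0.00273) and Abcg8 lower at -0.25 ± 0.08 (adjusted p = 0.0107), while Abcg5 did not pass the test (0.09 ± 0.08). The Abcg8 call was lost without knock-in replicate 1 (adjusted p = 0.0716) or wild-type replicate 2 (adjusted p = 0.0636). Stard4 was higher at 0.17 ± 0.05. With total-count scaling neither Abcg8 (-0.14) nor Scap (-0.10) was called, and Abcg5 was called at 0.19. A further 3 members were called only in some of the alternatives. Npc1 (-0.12) was called at -0.15 to -0.12 without knock-in replicate 3, wild-type untreated replicate 3 or wild-type treated replicate 1 or 3, and at -0.11 with the replicate number as a block (adjusted p = 0.0472), and also in limma (adjusted p = 0.0177) and with only the compared groups (adjusted p = 0.0308). Soat2 (-0.13) was called without wild-type untreated replicate 1 (-0.17) or treated replicate 2 (-0.14). Srebf2 (0.07) was called without wild-type untreated replicate 2 (0.14) and with total-count scaling (0.18, adjusted p = 0.00196).

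With CP775146 in both genotypes, 2 members were called higher and 10 lower in the knock-in, beside 20.5% of all genes higher and 22.0% lower. This split depended on the scaling and turned to 13 higher and 5 lower with total counts, beside 5950 higher and 1867 lower of all 15664 genes. Total-count scaling moves the median of all genes by 0.124. Under both scalings Hmgcs1 (0.26 ± 0.04) and Abcg5 (0.59 ± 0.09, adjusted p = 2.84e-06) were higher, and Insig2 (-0.75 ± 0.04, adjusted p = 2.5e-16), Sqle (-0.41 ± 0.04), Lss (-0.41 ± 0.04), Fdps (-0.37 ± 0.06) and Dhcr7 (-0.25 ± 0.04) were lower. Cyp51 (-0.17 ± 0.04), Msmo1 (-0.17 ± 0.04), Npc2 (-0.22 ± 0.04), Abcg8 (-0.25 ± 0.09) and Mylip (-0.54 ± 0.18) were called lower with TMM scaling and not called with total counts. The median of the 18 enzymes was -0.06 with TMM and 0.08 with total counts. The Mylip call was also lost without treated knock-in replicate 1 (adjusted p = 0.053) and in DESeq2 (adjusted p = 0.0701). The Abcg8 call was lost without treated knock-in replicate 2 or 3 or treated wild-type replicate 1 or 2 (adjusted p 0.0511 to 0.145), in DESeq2 (adjusted p = 0.0881) and with no filter on low counts (adjusted p = 0.0536). Without treated wild-type replicate 2, which held the highest Abca1 and Stard4 values of its group, Abca1 (0.15, adjusted p = 0.00464) and Stard4 (0.13, adjusted p = 0.011) were called higher and Tm7sf2 lower (-0.15, adjusted p = 0.00665), the last also without treated knock-in replicate 3 (-0.14) and in limma (-0.11). These comparisons share libraries with those of the treatment, so they are not independent of them.

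**Figure D4:**
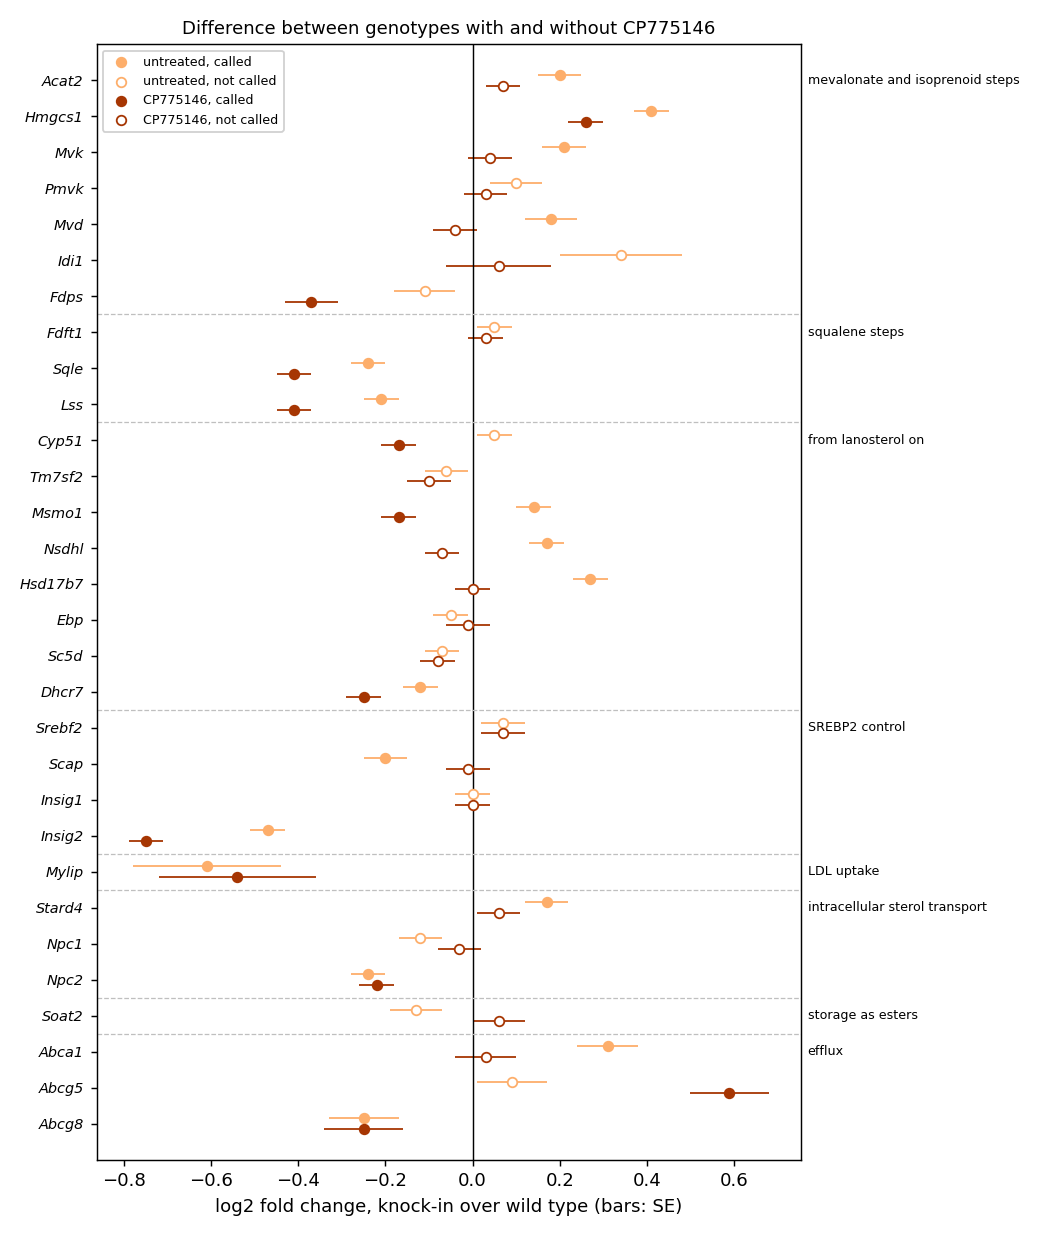
Log2 fold change of the knock-in over the wild type for the same 30 members (horizontal axis, bars are SE), light points without and dark points with CP775146, filled where called, with TMM scaling. Most dark points of the synthesis enzymes lie to the left of the light ones, Insig2 lies at -0.47 and -0.75, and Abcg5 lies at 0.09 untreated and 0.59 treated while Abcg8 lies at -0.25 in both.

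Beside the members, 32 further genes of the same pathways were taken from 4 lists. With CP775146 in the wild type 13 rose and 7 fell, beside 22.7% and 22.3% of all genes, and in the knock-in 12 rose and 3 fell, beside 18.1% and 19.1%. The count that fell in the wild type is close to the share over all genes. The wild-type split depended on the scaling. Under total-count scaling 10 rose and 14 fell there, beside 2358 higher and 5338 lower of all 15664 genes. In the knock-in 12 rose and 4 fell under it, beside 2066 and 4352 of all genes. Of 5 other synthesis-linked genes, Tmem97 (0.39 ± 0.04) and Erg28 (0.27 ± 0.05) rose in the wild type, and the difference between the genotypes was called for Aacs (0.18 ± 0.06, adjusted p = 0.044). Of 9 genes of SREBP processing and sterol-regulated degradation, Srebf1, which encodes SREBP1, rose by 0.75 in the wild type and 0.70 in the knock-in. Pgrmc1 rose in the wild type (0.33 ± 0.04), as did Erlin2 (0.14 ± 0.04), and none of the 9 differed in response between the genotypes (1 had an unadjusted p below 0.05 in edgeR).

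Of 9 genes of uptake, lysosomal release and transport, those that hydrolyse cholesterol esters had the largest rises. Nceh1, a neutral cholesterol ester hydrolase, went from 36.2 ± 1.96 to 135 ± 2.15 CPM (SD, n = 3) in the wild type and from 55.3 ± 1.93 to 140.0 ± 2.11 CPM in the knock-in. Its changes were 1.9 ± 0.04 and 1.34 ± 0.04, with a called difference of -0.56 ± 0.06 (adjusted p = 2.79e-07). Lipa, the lysosomal acid lipase, rose by 0.70 and 0.43, with a called difference of -0.27 ± 0.05 (adjusted p = 0.00116). Gramd1a, which moves sterol from the plasma membrane to the endoplasmic reticulum, fell by 43.2% in the wild type and 19.3% in the knock-in, with a difference of 0.51 ± 0.09 (adjusted p = 0.000404).

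Of the 9 genes of LXR, RXR and further LXR targets, 5 were called higher and 2 lower in the wild type, beside 22.7% and 22.3% of all genes. In the knock-in 5 were called higher and 1 lower, beside 18.1% and 19.1%. The change was positive for 6 of the 9 in the wild type and for 8 in the knock-in. Over all genes 50.8% and 51.8% of these changes were negative. Lpcat3, a phospholipid acyltransferase that LXR is known to induce, rose most, from 60.3 ± 3.14 to 263 ± 3.31 CPM in the wild type (2.12 ± 0.04) and from 90.5 ± 1.36 to 292 ± 7.37 CPM in the knock-in (1.69 ± 0.04). The difference was called (-0.43 ± 0.06, adjusted p = 4.78e-06). Pltp, the phospholipid transfer protein, rose by 0.75 and 0.77, and Smpdl3a by 0.40 and 0.21. Arl4c, a further target in the list that was named after its values were seen, was called lower (-0.5 and -0.57). Rxra, which encodes the RXR of hepatocytes, fell in the wild type (-0.18 ± 0.04) and did not pass the test in the knock-in (0.05 ± 0.04), and this difference was called (0.24 ± 0.05, adjusted p = 0.00392). The LXR genes themselves, named after their values were seen, were Nr1h3, at 0.14 ± 0.05 and 0.28 ± 0.05, and Nr1h2, at -0.04 ± 0.07 and 0.02 ± 0.07, of which the Nr1h3 changes were called.

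As checks, Mtdh lay between 157 and 197 CPM in all 12 libraries, and a count per gene cannot show the 2 changed codons. Mtdh was called higher with CP775146 in the wild type (0.13 ± 0.04, adjusted p = 0.0093) and the knock-in (0.16 ± 0.04, adjusted p = 0.00189). It was not called between the genotypes in either state. The classical PPARα targets answered the agonist, Ehhadh by 6.21 ± 0.05 and 6.23 ± 0.05 and Cpt1a by 1.30 ± 0.05 and 0.98 ± 0.04. Hepatocyte markers summed to 114900 to 121900 CPM in wild-type and 70900 to 82700 CPM in knock-in libraries, nearly all of it Alb, at 102000 CPM in untreated wild-type and 70500 CPM in untreated knock-in cells, and 5 of 8 were called lower in the untreated knock-in. Between the treated genotypes 5 were lower and Cps1 was higher (0.54). Macrophage markers summed to 107 to 253 CPM, nearly all of it Cd68, with Adgre1, Clec4f, Cd5l, Vsig4 and Lyz2 below 1 CPM in all libraries. Their sum was 213 to 253 CPM in untreated wild-type, 185 to 190 CPM in treated wild-type, 153 to 162 CPM in untreated knock-in and 107 to 122 CPM in treated knock-in libraries. Without Cd68 the order of the genotypes was the opposite, at 4.01 to 4.85, 2.89 to 3.57, 5.87 to 6.14 and 3.93 to 4.29 CPM in that order, and Marco and Lyz2 were called higher in the untreated knock-in. Endothelial markers summed to 38.1 to 91.9 CPM, mostly Stab2, and stellate markers to 67.3 to 219 CPM, mostly Reln, both with the wild type higher, and Des, Pdgfrb, Col1a1, Hand2 and Clec4g stayed below 1 CPM. Cholangiocyte markers summed to 15.07 to 17.99 CPM in untreated wild-type and 40.8 to 43.4 CPM in untreated knock-in libraries, with 4 of 5 called higher and Epcam below 1 CPM. With CP775146 they summed to 32.8 to 33.7 CPM in the wild type, where Krt19, Sox9 and Spp1 were called higher and Krt7 lower, and to 48.3 to 52.5 CPM in the knock-in, with Sox9 and Spp1 higher and Krt7 lower. Lymphocyte and neutrophil markers summed to at most 0.511 CPM, with Ncr1 at 0 in all libraries. The part of these shifts in the differences between the groups was not tested, and in such bulk samples fewer cells of a type and less RNA per cell cannot be told apart.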

How the data were processed

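RNA-seq of 12 libraries of primary mouse hepatocytes (total RNA, TruSeq kit, per the labels' protocols) was deposited as counts per gene. These counts are the authors' own and come from featureCounts 1.6.2, run on exons grouped by gene with no strand, multimapping or overlap option, per the file headers, from Subread alignments to mm10 with a filtered Ensembl GRCm38 annotation. The submitters' processing notes name FastQC 0.11.2, cutadapt 1.9, featureCounts 1.4.6-p4 and edgeR 3.18.1. Without strand, overlapping genes cannot be told apart, and shared exon bases were computed from the exon coordinates in the deposited files. Symbols were found for 46488 of the 46983 identifiers.

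The counts were tested in edgeR 4.0.16 (R 4.3.3): filterByExpr with a minimum count of 10, TMM scaling, 1 term per group over 12 libraries, and Benjamini-Hochberg adjustment over 15664 genes, which held at least 99.94% of the counts. The 5 comparisons were CP775146 in each genotype, the genotypes in each state, and the difference of the treatment effects. Alternatives were RLE and total-count scaling, other filters, the replicate number as a block, only the compared groups, DESeq2 1.42.0, limma 3.58.1 (voom with sample weights), and each library left out. The procedure was tested on simulated data. Summaries and exact permutation tests used Python 3.11.15 with scipy 1.17.1, with 0.5 CPM added before logs. The CPM that 3 counts represent covers counting error only.

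The members, lists and tests were chosen with earlier results of these data known. All members are named, and 1 gene of the further lists and 1 marker gene are not reported here. Full values per library are given for non-synthesis members and for synthesis members called with a log2 change of at least 0.5. Soat1 and, in the knock-in, Abcg1 are given by ranges. Sqle is given in full too, though its changes were smaller. Of each further list up to 3 genes with the smallest adjusted p in the wild-type treatment and in the difference are named. Nr1h3, Nr1h2 and Arl4c are named beside these. No 2 libraries of the same group agreed within sampling noise (chi-square per degree of freedom 1.68 to 6.43). Libraries with the same replicate number did not deviate together (r from -0.026 to 0.063 over 18 pairs).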

Additional observations from a re-analysis of the deposited data

Results flagged for a closer look

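For 8 of the 31 tested members the change with CP775146 differed between the genotypes by the test of that difference, which is the reason each is listed here. The test called 1 member higher and 7 lower, beside 2.78% of all genes higher and 4.33% lower. The differences are the knock-in change minus the wild-type change on the log2 scale, by edgeR's quasi-likelihood test. They were -0.31 for Msmo1, -0.27 for Hsd17b7, -0.24 for Nsdhl, -0.22 for Cyp51, -0.20 for Lss and -0.17 for Sqle. In each of these 6 synthesis enzymes the rise was smaller in the knock-in. None of the 7 early enzymes was called, but all 7 had negative differences, with a median of -0.18. The median was -0.17 for the 3 squalene enzymes and -0.17 for the 8 from lanosterol on. Insig2 had -0.27, also a smaller rise. Abcg5 had 0.50, a smaller fall, which its neighbour and partner Abcg8 did not show by the test (adjusted p = 1.0). Adjusted p-values ranged from 0.000327 for Msmo1 to 0.0325 for Sqle. The CPM sum of the hepatocyte markers, nearly all of it Alb, was lower in each knock-in library than in each wild-type library. Single markers varied. Hnf4a was not called between the genotypes in either state (-0.01 untreated and 0.04 treated), and Cps1 was higher in the treated knock-in (0.54). The part of these marker levels in the differences listed here was not tested.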

How the results depend on the processing

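Of the 155 results for single members (31 genes in 5 comparisons) 86 were called. Over the alternatives, 1654 of 1761 values kept direction and side of the threshold, 56 lost the call, 48 gained one and 3 changed sign, and a further 1296 values were called neither before nor after and are not counted as stable. The 3 changes of sign were of members not called with TMM and called higher with total-count scaling in the comparison of treated genotypes: Ebp 0.13 (adjusted p = 0.0178), Scap 0.13 (adjusted p = 0.0361) and Insig1 0.13 (adjusted p = 0.00586). Total-count scaling gave 15 members higher and 5 lower between untreated genotypes, with medians of 0.18 for synthesis and 0.19 for efflux, and 13 higher and 5 lower between treated genotypes, with medians of 0.08 and 0.17. For CP775146 it gave medians of 0.48 for synthesis and -0.91 for efflux in the wild type, and 0.28 and -0.54 in the knock-in. For the difference of the treatment effects it gave 2 members higher and a synthesis median of -0.14. That scaling moved the median of all genes by 0.098, -0.104, -0.074, 0.124 and 0.029 in the order untreated genotypes, CP775146 in the wild type, CP775146 in the knock-in, treated genotypes and difference. It also changed the counts over all genes, for example from 3218 higher and 3447 lower to 5950 and 1867 between treated genotypes, from 2884 and 2918 to 5024 and 1722 between untreated genotypes, from 3553 and 3496 to 2358 and 5338 with CP775146 in the wild type, from 2832 and 2989 to 2066 and 4352 in the knock-in, and from 435 and 678 to 663 and 519 for the difference.

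With 1 library left out at a time, the members called ranged from 8 to 11 higher and 6 to 9 lower between untreated genotypes, 19 to 21 and 6 with CP775146 in the wild type, 17 to 20 and 3 to 4 in the knock-in, 2 to 4 and 9 to 10 between treated genotypes, and 1 to 2 and 5 to 9 for the difference. The calls over all genes, 15916 to 15960 in these fits, moved too. In the same order they ranged from 2557 to 2942 higher and 2370 to 3130 lower, 3132 to 3563 and 3067 to 3430, and 2384 to 3068 and 2425 to 3135. The last 2 ranges were 2798 to 3337 and 2977 to 3558 between treated genotypes, and 251 to 638 and 481 to 882 for the difference. The synthesis medians ranged over 0.06 to 0.1, 0.56 to 0.58, 0.32 to 0.37, -0.08 to -0.02 and -0.2 to -0.14 in that order. The efflux medians ranged over 0.02 to 0.17, -0.87 to -0.77, -0.52 to -0.44, -0.03 to 0.15 and -0.04 to 0.07. The replicate number as a block changed 1 call among the members, Npc1 between untreated genotypes (-0.11, adjusted p = 0.0472), and left the counts of members at 20 higher and 6 lower with CP775146 in the wild type and 19 and 4 in the knock-in. Libraries with the same number did not deviate together. This check cannot exclude that they share a mouse or preparation, since the labels do not say what the numbers stand for. Depth limits Abcg1, Soat1 and Mylip, with at most 11, 15 and 62 counts per library.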
